A study of Homo sapiens with 8 samples.

Results

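The platelet-derived growth factor (PDGF) family was followed through 8 RNA sequencing libraries of human endothelial cells: the ligand genes PDGFA, PDGFB, PDGFC and PDGFD and the receptor genes PDGFRA and PDGFRB. They were chosen by name, and all 6 were found among the 30386 genes of the deposited table, each as a single protein-coding gene. All libraries derive from the human iPSC line WTC-TJP1, which is established in culture. The iEC group holds 4 libraries of endothelial cells and the iREC group 4 of retinal endothelial cells from a matched differentiation, lettered C, D, E and F in each group. Both groups were analysed at passage 1 and carry the same cell type label, and the labels used here name no factor, time or sorting step that sets iREC apart. The cells represent 1 line, and nothing states that the samples came from separate cultures, so p-values measure only the spread between these samples.

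PDGFs are secreted dimers that bind receptor tyrosine kinases. PDGF-A and PDGF-B are cut inside the cell by proprotein convertases, whereas PDGF-C and PDGF-D leave the cell with a CUB domain that an extracellular protease must remove. PDGF-A and PDGF-C signal chiefly through PDGFRα, PDGF-B through both receptors and PDGF-D chiefly through PDGFRβ. In the retina, PDGF-B from sprouting endothelium is known for recruiting pericytes, which carry PDGFRβ, and endothelial cells themselves usually have little of either receptor.

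The iEC libraries held 14877502 to 16971865 counts, and the iREC libraries 13739364 to 15987839. The floor of detection used here, 3 counts, was worth 0.177 to 0.214 CPM, counts scaled to a common library size after TMM; floors cover counting error only. The 12 endothelial markers were all above that floor in every sample. Their summed level was 7540 to 9560 CPM in iEC and 7880 to 10200 CPM in iREC C, D and E, but 4560 CPM in iREC F. In that library the fibroblast and mesenchymal markers summed to 4380 CPM, against 793 to 1490 CPM in the other iREC samples and 168 to 413 CPM in iEC. Epithelial markers summed to 4910 CPM in iREC F, against 301 to 1110 CPM in the other iREC samples and 390 to 1170 CPM in iEC. Most of the iREC F sum was the keratins KRT8 (3010 CPM) and KRT18 (1530 CPM), whereas EPCAM was 3.26 CPM. Both keratins were also present in every iEC sample, at 145 to 597 CPM for KRT8 and 228 to 464 CPM for KRT18. iREC F thus stands apart, and the members' results are given with and without it. Of the 58 called genes of the pathway and marker lists, 56 were also called without iREC F and none (0) changed sign; EXT1 and LUM lost their call. In bulk RNA, fewer cells of a type and less RNA per cell cannot be told apart.

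Of the 5 members that could be tested, only PDGFC passed the threshold in the fit to all 8 samples: it was higher in iREC, in every sample. The fit was edgeR's quasi-likelihood test over 15330 genes with Benjamini-Hochberg adjustment, a gene being called at an adjusted p under 0.05, and 25.0% of all tested genes were called. The most abundant ligand, PDGFB, and PDGFA were not called. PDGFRB had a mean 5.44 times higher in iREC without being called, and its mean rested largely on iREC F. PDGFRA was near the floor and was below the filter on low counts.

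**Figure D1:**
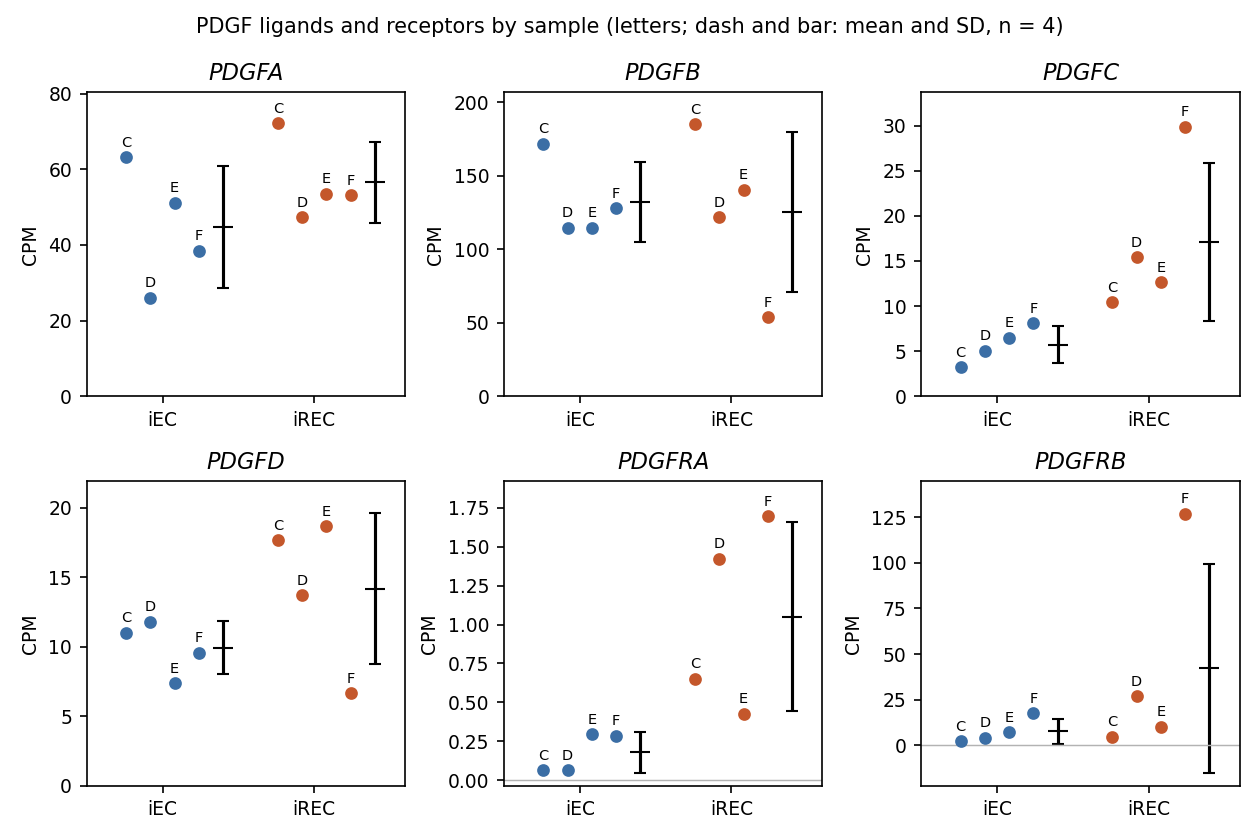
Level of each PDGF gene (CPM, linear axes that differ between panels) in the iEC samples (blue) and iREC samples (orange), with the sample letter above each point; the dash and bar are the mean and SD of 4 samples. PDGFC in iREC lies above all iEC samples, whereas iREC F is the lowest PDGFB and PDGFD sample and, at 127 CPM, the highest PDGFRB sample.

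PDGFB (ENSG00000100311, chromosome 22, 39223359 to 39244751, minus strand, GRCh38) encodes the B chain that endothelium releases toward mural cells. It was 172, 115, 115 and 128 CPM in iEC C, D, E and F. In iREC it was 185, 122, 140 and 54.0 CPM in the same letter order. The groups overlapped, and iREC F was the only sample of the 8 under 100 CPM in the gene. Means were 132 ± 27.1 and 125 ± 54.4 CPM (SD, n = 4), with a log2 fold change of iREC over iEC of -0.08 (95% interval -0.79 to 0.64; edgeR adjusted p 0.888). The sign was not settled: without iREC F the log2 fold change was 0.17 (edgeR adjusted p 0.547), and without iEC C it was 0.06. An antisense gene, AL031590.1, overlaps PDGFB but had at most 15 counts in a sample, against at least 828 for PDGFB.

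PDGFA (ENSG00000197461, chromosome 7, 497258 to 520296, minus strand) encodes the A chain, which signals to PDGFRα-bearing cells. It was 63.2, 26.1, 51.2 and 38.5 CPM in iEC C, D, E and F, and the iREC samples stood at 72.1, 47.4, 53.5 and 53.2 CPM. The C sample was the highest of its group in both, and the groups overlapped. The iEC mean was 44.7 ± 16.0 CPM and the iREC mean 56.6 ± 10.8 CPM (SD, n = 4). The fitted log2 fold change was 0.34, with a 95% interval of -0.24 to 0.92 (edgeR adjusted p 0.373). Leaving out iEC D, the lowest sample, brought the value to 0.15, and PDGFA was called in none of the 16 alternatives (0), whose adjusted p ran from 0.14 to 0.647. DESeq2, which called 30.4% of tested genes, gave an adjusted p of 0.391.

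PDGFC (ENSG00000145431, chromosome 4, 156760454 to 156971394, minus strand) encodes a CUB-domain ligand made by many mesenchymal and epithelial cells. Its counts were 50, 80, 110 and 113 in iEC and 160, 217, 208 and 458 in iREC, for samples C, D, E and F. On the CPM scale these were 3.24 to 8.08 in iEC and 10.4 to 29.9 in iREC. The groups did not overlap, as in 29.1% of all tested genes (14.4% in this direction), and iREC F was the highest sample. The iEC mean was 5.72 ± 2.06 CPM and the iREC mean 17.1 ± 8.76 CPM (SD, n = 4). PDGFC thus rose by 1.58 ± 0.39 (SE) on the log2 scale, with a 95% interval of 0.71 to 2.46 and an edgeR adjusted p of 0.0164. Without iREC F the rise was 1.17 on the log2 scale with an edgeR adjusted p of 0.0242, and without both F samples 1.38 (adjusted p 0.0131 by edgeR). The call held under each of the 16 alternatives, with adjusted p of up to 0.045. The authors' deposited table lists a log2 fold change of 1.57 and an adjusted p of 0.000841.

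PDGFD (ENSG00000170962, chromosome 11, 103907186 to 104164379, minus strand), the other CUB-domain ligand, is known in arterial endothelium and smooth muscle. It was 11.0, 11.8, 7.38 and 9.58 CPM in iEC C, D, E and F. In iREC it was 17.7, 13.7, 18.7 and 6.66 CPM. iREC C, D and E each exceeded every iEC sample, and iREC F was below every iEC sample. With all samples PDGFD was not called (log2 fold change 0.51, 95% interval -0.20 to 1.22; edgeR adjusted p 0.267). Without iREC F it was higher by 0.75 on the log2 scale and was called (edgeR adjusted p 0.0326), where 26.7% of tested genes were called. Without both F samples, where 27.4% of genes were called, the value was 0.73 (edgeR adjusted p 0.0487). The call therefore depended on 1 library.

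PDGFRB (ENSG00000113721, chromosome 5, 150113837 to 150155872, minus strand) encodes the receptor of PDGF-B and PDGF-D and is a defining gene of pericytes. Its counts were 33, 67, 120 and 246 in iEC and 72, 380, 169 and 1945 in iREC, again for C, D, E and F. In CPM the iEC samples ran from 2.14 to 17.6, an 8.21-fold range. The iREC samples were 4.70, 27.0, 10.3 and 127 CPM, a 27.0-fold range, the widest of the 6 members. The groups overlapped: iREC C and E were below iEC F, and the F sample was the highest in each group. Means were 7.76 ± 6.86 and 42.2 ± 57.2 CPM (SD, n = 4). The log2 fold change of 2.45 had a 95% interval of 0.17 to 4.73, and the edgeR adjusted p was 0.108. Without iREC F it was 0.85 (edgeR adjusted p 0.425), and without iEC F 3.22 (adjusted p 0.0762 by edgeR). The authors' deposited table lists 2.42 with an adjusted p of 0.0973.

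PDGFRA (ENSG00000134853, chromosome 4, 54229097 to 54298247, plus strand) encodes the receptor of PDGF-A and PDGF-C and marks fibroblasts and early mesoderm. It had 1, 1, 5 and 4 counts in iEC C, D, E and F and 10, 20, 7 and 26 counts in iREC. iEC C and D were under the floor, and the highest sample, iREC F, reached 1.70 CPM. The groups did not overlap, as in 29.1% of all tested genes (14.4% in this direction), among which PDGFRA was not. The nearest samples were close and near the floor: iEC E had 5 counts (0.295 CPM) and iREC E 7 counts (0.426 CPM). Summed over samples there were 11 counts in iEC and 63 in iREC, which after scaling for library size is a ratio of 5.83, with an exact 95% interval of 3.04 to 12.3 that covers counting error only. PDGFRA did not pass the filter with all samples. In the fit without a filter it was higher by 2.50 on the log2 scale (edgeR adjusted p 0.0345), where 12.8% of 30386 genes were called. Some fits that left out a sample let it pass the filter, and its edgeR adjusted p was then 0.0358 without iEC F (23.0% of genes called), 0.0583 without iEC D and 0.0666 without iEC C. The authors' deposited table lists a log2 fold change of 2.55 with an adjusted p of 0.0094, and 16.3% of its genes have one under the same threshold.

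**Figure D2:**
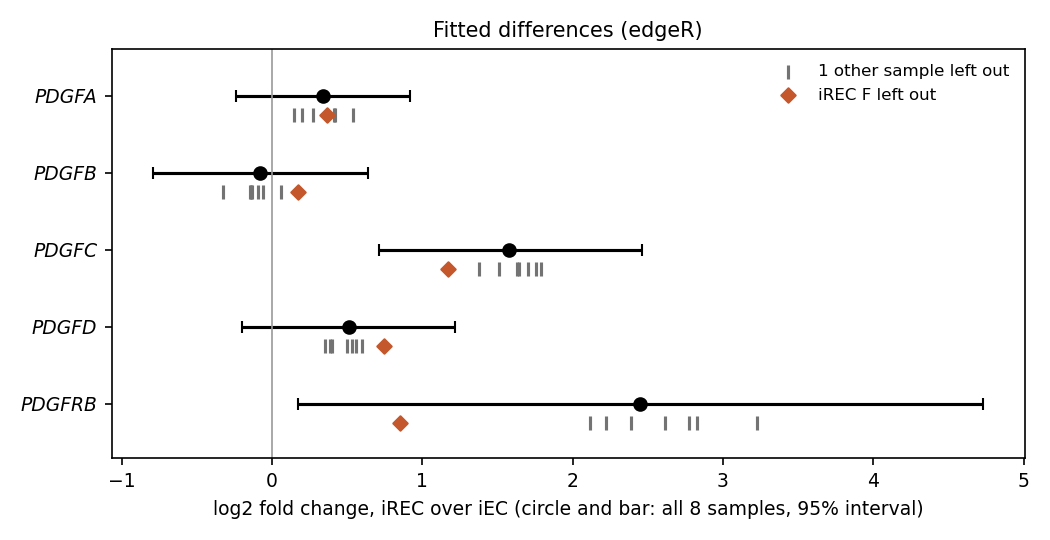
Fitted log2 fold change of iREC over iEC for the 5 tested members (circle, all 8 samples; bar, 95% interval), with the value after leaving out iREC F (diamond) or another single sample (ticks). PDGFC stays between 1.17 and 1.79, whereas PDGFRB falls from 2.45 to 0.85 and PDGFB changes sign without iREC F.

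Levels were compared between genes per length, as the deposited FPKM. In iEC the mean order was PDGFB (34.9 ± 6.94 FPKM, SD, n = 4), PDGFA (10.7 ± 3.74), PDGFD (2.32 ± 0.437), PDGFRB (1.1 ± 0.996), PDGFC (1.02 ± 0.389) and PDGFRA (0.0183 ± 0.0137). PDGFB and PDGFA were separate in their sample ranges, and so were PDGFA and PDGFD. PDGFRB overlapped both PDGFD and PDGFC. In iREC the order was PDGFB (32.8 ± 14.2 FPKM), PDGFA (13.4 ± 2.56), PDGFRB (5.88 ± 8.01), PDGFD (3.27 ± 1.25), PDGFC (3.02 ± 1.58) and PDGFRA (0.107 ± 0.0621). Neighbours from PDGFB to PDGFC overlapped there in their ranges, PDGFB with PDGFA and PDGFA with PDGFRB only through iREC F. Without iREC F the PDGFRB mean was 1.93 ± 1.6 FPKM (SD, n = 3), below PDGFD at 3.85 ± 0.604 and PDGFC at 2.26 ± 0.436 FPKM, so its place in the order rested on that library. Within each of the 8 samples PDGFB was the highest ligand and PDGFA the next.

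PDGFB made up 66.7% to 75.4% of the summed ligand FPKM in iEC. In iREC C, D and E its share was 67.8%, 65.0% and 65.7%, and in iREC F 42.2%. The PDGFC share was 0.905% to 3.07% in iEC, 2.57% to 5.55% in iREC C, D and E, and 15.7% in iREC F. These shares are descriptions and were not tested. PDGFRB made up 90.8% to 99.0% of the summed receptor FPKM in the 8 samples. In iREC F PDGFRB was, at 17.7 FPKM, above PDGFB at 14.3 FPKM, which was so in no other sample, where PDGFRB was at most 3.72 FPKM and PDGFB at least 29.9 FPKM.

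**Figure D3:**
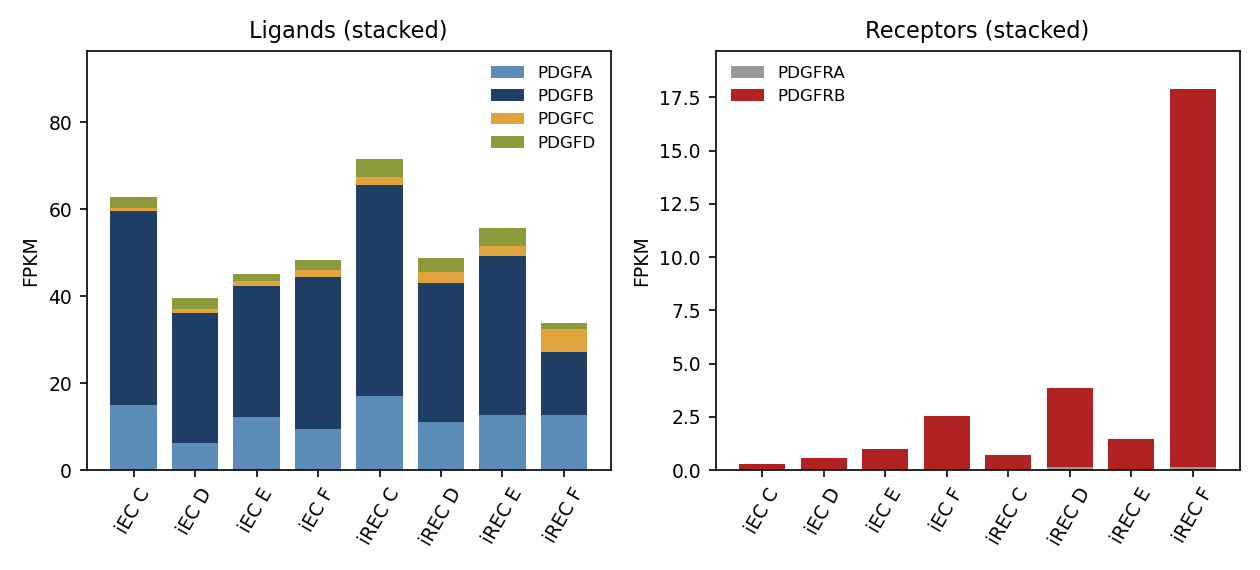
Deposited FPKM of the ligand genes (left, stacked) and receptor genes (right, stacked, other axis range) in each sample. Ligand sums run from 34.0 FPKM in iREC F to 71.5 FPKM in iREC C, and receptor sums from 0.300 FPKM in iEC C to 17.9 FPKM in iREC F.

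The receptor levels were set beside the markers of cells that usually carry them. Of 8 tested fibroblast and mesenchymal markers, 4 were called, 2 higher and 2 lower, where 25.0% of all tested genes were called (median log2 fold change 1.84, against 0.02 over all tested genes). POSTN, a matrix protein, rose by 5.99 and LUM, a collagen-binding proteoglycan, by 5.80 on the log2 scale, while THY1 fell by 1.76 (edgeR adjusted p 0.00132, 0.0333 and 0.0216). Without iREC F, 3 of the 8 tested markers were called, 1 higher and 2 lower, where 26.7% of all tested genes were called (median 0.84). The LUM value was then 3.5 on the log2 scale and was not called (edgeR adjusted p 0.0739). In iREC C, E, D and F, in that order, PDGFRB was 4.70, 10.3, 27.0 and 127 CPM. LUM was 1.96, 13.8, 61.7 and 427 CPM in the same order, and the collagen gene COL1A1 35.1, 57.9, 111 and 447 CPM. Of the 12 mesenchymal markers in the table, 6 had that sample order (COL1A1, COL3A1, DCN, LUM, POSTN and FBLN1) and 11 were highest in iREC F. Among the latter, FAP and TCF21 had at most 6 counts in any sample. The share of all tested genes with that order, or highest in iREC F, was not counted. THY1 ran against the PDGFRB order, at 23.3, 13.5, 11.5 and 8.61 CPM. The summed mesenchymal markers, 793, 1030, 1490 and 4380 CPM, had the PDGFRB order too. The summed epithelial markers (301, 420, 1110 and 4910 CPM) and pluripotency markers (58, 90.4, 184 and 516 CPM) shared it. The order was therefore not particular to mesenchymal markers. PDGFC, the called member, also had it, at 10.4, 12.7, 15.4 and 29.9 CPM in iREC C, E, D and F. Over the 8 samples the log2 CPM of PDGFC and PDGFRB had a Pearson correlation of 0.898, or 0.969 with group means removed. The other ligands had negative coefficients with PDGFRB. In iEC C, D, E and F the mesenchymal sum was 203, 233, 168 and 413 CPM. It was highest in F, as PDGFRB was, but lowest in E, where PDGFRB was 7.09 CPM. The part of these markers in the PDGFRB and PDGFC values was not tested.

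Mural markers changed in both directions. Of 10 tested, 8 were called, 5 higher and 3 lower, against 25.0% of all tested genes called (median 2.19, against 0.02), and the same numbers were called without iREC F (median 1.37). Their summed level was 1970 to 2590 CPM in iEC and 1410 to 2440 CPM in iREC, of which MCAM, which endothelium also expresses, was 1920 ± 240 and 934 ± 306 CPM. The contractile genes TAGLN and CNN1 rose by 4.16 and 4.83 on the log2 scale (edgeR adjusted p 0.000147 and 0.00112), and by 3.95 each without iREC F. NOTCH3, MYH11 and CD248 also rose. Of the 15 mural markers in the table, 3 had the sample order of PDGFRB in iREC: CSPG4, DES and NDUFA4L2, the last with at most 6 counts there. Among the 15, 12 were highest among the iREC samples in iREC F, and the shares of all genes were not counted for iREC F. There ACTA2, smooth muscle actin, was 425 CPM, against 35.5 to 95.2 CPM in the other iREC samples, and NOTCH3 116 CPM, against 31.2 to 48.4 CPM. DES, desmin, had 95 counts there, against 2 to 21. RGS5, a pericyte gene, fell by 1.40 and ANPEP, a peptidase of pericytes and other cells, by 5.05 (edgeR adjusted p 0.021 and 0.00432). CSPG4, the NG2 proteoglycan of pericytes, stood at 2.94, 32.0, 11.6 and 93.6 CPM in the iREC samples C to F and was not called (edgeR adjusted p 0.16). The pericyte genes KCNJ8, ABCC9 and HIGD1B had at most 9 counts in any sample. The part of mural markers in the PDGFRB values was not tested.

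Of the 12 endothelial markers, 8 were called, 3 higher and 5 lower, where 25.0% of all tested genes were called (median -0.28). EMCN and TEK rose by 6.68 and 3.82 on the log2 scale, while the values were -1.57 for PECAM1 and -1.33 for ROBO4 (edgeR adjusted p 4.11e-05, 0.00011, 0.000632 and 0.00422). PECAM1 was 491 CPM in iREC F, against 814 to 852 CPM in the other iREC samples, the sample where PDGFB and PDGFD were also lowest. Of 5 tested epithelial markers 1 (20%) was called, KRT7, higher (median 0.87). CDH1, E-cadherin, was below the filter, with at most 1 count in an iEC sample. In iREC C, D, E and F it had 0, 72, 19 and 1246 counts. Without iREC F the epithelial median was -0.30. KRT7 was still called there (log2 fold change 4.42, edgeR adjusted p 0.042), while each other tested epithelial marker changed sign to below 0, uncalled. Of 2 tested pluripotency markers LIN28A was called, higher (median 2.36). LIN28A rose by 3.40 on the log2 scale with all samples and by 2.15 without iREC F (edgeR adjusted p 0.0242 and 0.0393). POU5F1, NANOG, SOX2 and TDGF1 were below the filter.

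**Figure D4:**
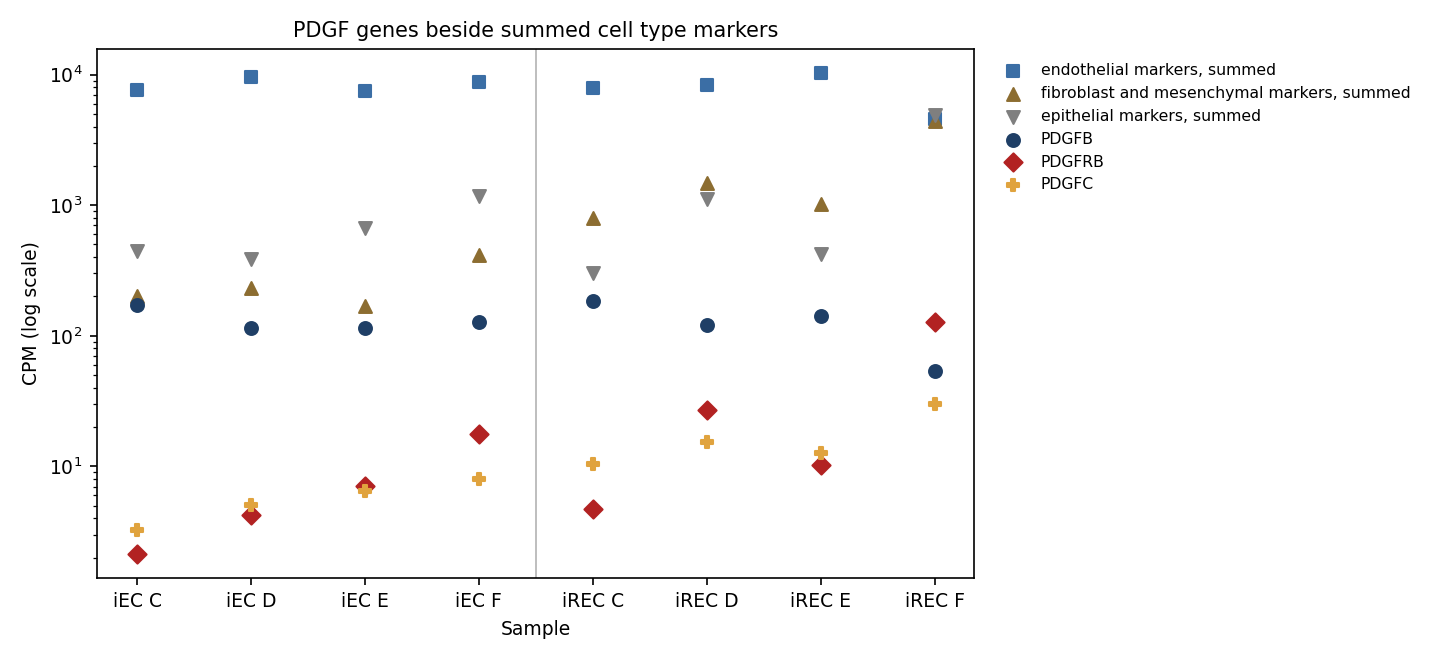
CPM (log axis) of PDGFB, PDGFC and PDGFRB in each sample beside the summed CPM of endothelial, fibroblast and mesenchymal, and epithelial markers. In iREC F the endothelial sum (4560) is lowest, the mesenchymal (4380) and epithelial (4910) sums are highest, and PDGFRB exceeds PDGFB.

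Proteases and binding partners of the ligands changed in both directions. Of 18 listed genes 17 were tested and 7 called, 4 higher and 3 lower in iREC (median log2 fold change 0.47), where 25.0% of all tested genes were called. PLAT, tissue plasminogen activator, which is known to free PDGF-C from its CUB domain, was 10.6 to 42.7 CPM in iEC and 109 to 255 CPM in iREC. It rose by 2.95 ± 0.44 on the log2 scale (SE; edgeR adjusted p 0.00138). PLAU, urokinase, which is known to activate PDGF-D, was 80.4 to 354 CPM in iEC and 3.59 to 33.3 CPM in iREC. It fell by 3.8 on the log2 scale (SE 0.74; edgeR adjusted p 0.00538). PLAT and PLAU therefore moved in opposite directions. In neither did the groups overlap, which was so in 29.1% of all tested genes.

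A2M, the plasma protease inhibitor that binds PDGF, fell to 22.1 ± 10.4 CPM in iREC, against 235 ± 41.4 CPM in iEC (SD, n = 4; edgeR adjusted p 0.000105). SDC2, a heparan sulfate proteoglycan of the cell surface, rose from 10.9 ± 7.91 to 111 ± 76.9 CPM, with 224 CPM in iREC F (edgeR adjusted p 0.00323). SPARC, a matrix protein that binds PDGF-B, rose by 1.12 on the log2 scale (edgeR adjusted p 0.00134). Of the heparan sulfate enzymes, EXT1 rose by 0.70 and NDST1 fell by 0.83 (adjusted p 0.0273 and 0.000954 by edgeR); without iREC F, EXT1 was at 0.60 and not called (0.0541). FURIN, the convertase that cuts PDGF-A and PDGF-B precursors, was 399 ± 96.4 and 361 ± 41.2 CPM and was not called (edgeR adjusted p 0.599). NRP1, a co-receptor for PDGF and VEGF ligands, was 329 ± 213 and 556 ± 148 CPM, also not called (0.184).

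Adaptors and enzymes that act at the activated receptor were mostly lower where called. Of 21 tested, 1 was higher and 7 were lower in iREC, while 13 were not called (median -0.16); of all tested genes 25.0% were called, 11.7% lower. The Src-family kinase YES1 was 238 ± 31.6 CPM in iEC and fell to 88.9 ± 5.23 CPM in iREC (SD, n = 4; edgeR adjusted p 9.78e-05). PIK3CB, a catalytic subunit of phosphoinositide 3-kinase, fell by 1.04 and its regulatory partner PIK3R1 by 0.82 on the log2 scale (edgeR adjusted p 0.00112 and 0.00101). PLCG1, SHC1, FYN and GRB2 were the others that fell, by 0.38 to 0.87 on the log2 scale. SOS1, the exchange factor that activates Ras, was the gene that rose, by 0.55 ± 0.15 (SE; edgeR adjusted p 0.0236). These proteins serve many receptors beside those for PDGF.

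Of 15 negative regulators, 5 were called, 2 higher and 3 lower (median -0.39), a share of 33.3% near the 25.0% of all tested genes. LRIG1, a membrane inhibitor of receptor tyrosine kinases, stood at 3.59 ± 3.34 CPM in iEC and rose to 28.8 ± 13.4 CPM in iREC (SD, n = 4; edgeR adjusted p 0.00585). The feedback inhibitors SPRY4 and SPRED2 fell by 1.73 and 1.23, and CAV1, the caveolar coat protein, by 1.81 (edgeR adjusted p 0.0117, 0.0432 and 0.00369). Without iREC F, 8 of these genes were called, 2 higher and 6 lower, where 26.7% of all tested genes were called, and without both F samples 9, where 27.4% were.

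Genes that growth factors induce within a short time were more often lower than higher. Of 20 tested, 13 were called, 2 higher and 11 lower in iREC (median -0.91), where 11.7% of all tested genes were called lower. DUSP4, a MAP kinase phosphatase, was 192 to 357 CPM in iEC and 11.8 to 21.2 CPM in iREC, or -4.00 ± 0.29 on the log2 scale (SE; adjusted p 4.11e-05 by edgeR). EGR1, a zinc finger factor, was 6.42, 48.0, 7.98 and 20.9 CPM in iEC C, D, E and F, and 1.70 to 6.13 CPM in iREC (edgeR adjusted p 0.0327). JUN fell by 1.78 and FOSL1 fell by 2.07 on the log2 scale, while FOSL2 rose by 0.96 and SRF, the serum response factor, by 0.81 (edgeR adjusted p 9.87e-05, 0.000969, 0.00948 and 0.00484). FOS itself was 5.98 ± 3.70 and 3.27 ± 2.01 CPM and was not called (edgeR adjusted p 0.285).

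**Figure D5:**
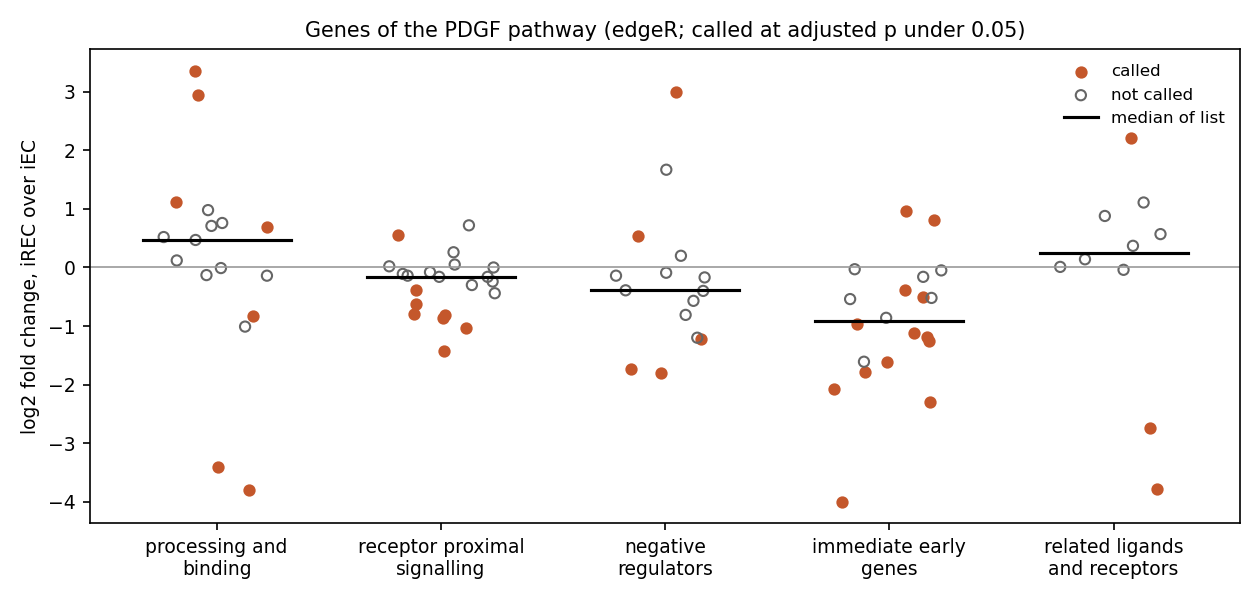
Fitted log2 fold change of iREC over iEC for the tested genes of 5 lists around the PDGF pathway (filled, called at an edgeR adjusted p under 0.05; open, not called; line, median of the list). The immediate early genes have the lowest median, -0.91, with 11 called lower and 2 called higher.

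Among relatives of the family, 10 of 13 genes were tested and 3 called, 1 higher and 2 lower (median 0.25), a share near the 25.0% of all tested genes. VEGFA rose from 7.12 ± 2.72 to 33.1 ± 8.33 CPM (SD, n = 4), and PGF, placental growth factor, fell from 84.1 ± 20.2 to 6.09 ± 5.15 CPM (edgeR adjusted p 0.000899 and 0.000777). KITLG, the ligand of the class III receptor KIT, fell from 271 ± 126 to 40.3 ± 12.5 CPM (edgeR adjusted p 0.00166). KIT, which belongs to the same receptor class as the PDGF receptors, was 5.28 ± 3.76 and 7.82 ± 1.83 CPM and was not called (edgeR adjusted p 0.422). The class III receptors CSF1R and FLT3 were below the filter, with at most 15 and 4 counts in a sample.

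Stretches around the start sites of PDGFRB and PDGFA are shown because PDGFRB was the member that varied most and because PDGFA is a known target of EGR1, which fell here while PDGFA was not called. They are reference sequence from RefSeq (GRCh38.p14), read 5′ to 3′ on the minus strand, on which both genes lie. Of the 6 members, PDGFA, PDGFD, PDGFRA and PDGFRB were matched in the RefSeq promoter table, and for PDGFA the start nearest that of the deposited gene was used; its stretch stops 40 bases before the RefSeq start. The last 27 bases for PDGFRB and 30 for PDGFA lie within the deposited genes. Capitals mark matches on either strand to the GC box letters GGGCGG or to the letters GCGGGGGCG of an EGR1 site, which can overlap a GC box. The CCAAT box, searched by the letters of its name, and the TATA box, searched as TATAAA, are marked in the same way. The first covers chr5:150155846-150156095 and the second chr7:520267-520476.
PDGFRB: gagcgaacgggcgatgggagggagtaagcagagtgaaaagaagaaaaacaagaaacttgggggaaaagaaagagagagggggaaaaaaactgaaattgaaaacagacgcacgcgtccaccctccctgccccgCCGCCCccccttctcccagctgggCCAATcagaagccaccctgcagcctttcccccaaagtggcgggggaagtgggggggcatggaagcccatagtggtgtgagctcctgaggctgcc
PDGFA: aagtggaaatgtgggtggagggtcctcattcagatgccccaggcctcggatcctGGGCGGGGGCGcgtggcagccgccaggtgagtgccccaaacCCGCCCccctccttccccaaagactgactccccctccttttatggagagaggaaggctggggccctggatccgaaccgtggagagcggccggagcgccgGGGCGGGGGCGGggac

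The PDGFRB stretch of 250 bases held 1 GC box and 1 CCAAT box, present in 42.6% and 32.0% of all 35116 promoter windows of that length. It had no match to the TATA box or EGR1 letters. The PDGFA stretch of 210 bases held 4 GC boxes and 2 EGR1 matches, each of which overlaps a GC box, and 37.2% and 3.66% of windows of its length hold at least 1 of each. Its GC content was 69.0%, against a median of 57.6%, and that of PDGFRB 58.4%, against 58.0%. These matches describe letters only.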

How the data were processed

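Messenger RNA was selected with poly-T beads and second-strand cDNA was made with dUTP, per the labels' protocols. The submitters' processing notes name fastp, HISAT2 2.0.5 and the hg38 build; the counting program is not given in the sources used here. Per the file headers, the deposited table holds read counts per gene, a normalized signal, FPKM, and the authors' log2 fold changes and p-values, whose test is not stated. The deposited signal equals the count divided by 1 factor per sample, and the deposited FPKM is that signal per kilobase on a common library size of 15383181.

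From the counts, genes were kept by filterByExpr, scaled by TMM and tested with edgeR 4.0.16 (glmQLFit and glmQLFTest, group as the only term, all 8 samples, Benjamini-Hochberg adjustment); standard errors come from the coefficient and F statistic, and intervals are at 95%. CPM uses TMM factors on full library totals. The fits were tested on simulated data, where DESeq2 made more false calls than edgeR. Alternatives were DESeq2 1.42.0, limma-voom (limma 3.58.1), other scalings and filters, the replicate letter as a block, each sample left out and, chosen after seeing the data, both F samples left out, and iREC F left out for listed genes and iREC levels. The members, gene lists, tests and naming rule were chosen with earlier results of these data known. The rule named all 6 members, up to 2 called genes per direction and list with at least 10 CPM in a group, and the 3 protein-coding genes most correlated with each tested member; SPARC, EXT1, NDST1, FURIN, NRP1, PIK3R1, PLCG1, SHC1, FYN, GRB2, SPRED2, JUN, FOSL1, FOS, KIT, CSF1R, FLT3, COL1A1, CSPG4, ACTA2, NOTCH3, MYH11, CD248, COL3A1, FBLN1 and the markers named as near the floor were picked outside it, with their values already in view. MCAM, DES, DCN, KRT8, KRT18, EPCAM, CDH1, POU5F1, NANOG, SOX2 and TDGF1 were also named outside the rule, with their values in view. RGS5 is held by 2 gene identifiers, of which that with more counts was used. COX4I2, MEOX1 and DPT were not found by these names in the deposited table and so were not analysed here. A gene that the naming rule selects is not reported here.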

Additional observations from a re-analysis of the deposited data

How the results depend on the processing

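Each member kept the sign of its log2 fold change under every alternative that gave a value, except PDGFB, and PDGFA and PDGFC also kept their side of the threshold. Leaving out each sample in turn gave log2 fold changes of 0.15 to 0.54 for PDGFA, -0.33 to 0.17 for PDGFB, 1.17 to 1.79 for PDGFC, 0.36 to 0.75 for PDGFD, 2.23 to 2.79 for PDGFRA and 0.85 to 3.22 for PDGFRB. Without both F samples PDGFB was 0.16, PDGFD 0.73 and PDGFRB 1.64, and 9 negative regulators were called; leaving out single samples gave 4 to 8 of them. PDGFRA was 2.50 without a filter; it could not be fitted under the other alternatives that kept one, and of the samples left out only iEC C, D or F let it pass. PDGFRB was called under none of the alternatives but the replicate block. The letters C to F pair no samples by the labels: same-letter deviations from the group means correlated between -0.0794 and 0.25 over 15330 genes, over 0.1 for C and F only, and the D and E samples did not correlate best with their own letter. With the letter as a replicate block PDGFRB had a log2 fold change of 1.85 (edgeR adjusted p 0.0293), PDGFRA without a filter 2.45, PDGFC 1.54, and 3334 genes were called in place of 3829. The count of all calls ran from 2660 to 4664, and the causes of these shifts were not tested. Depth limits PDGFRA most, at 1 to 26 counts per sample. The table holds 1 count per gene, so transcript forms cannot be told apart.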

Other observations

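The genes whose log2 CPM ran most like that of each tested member over the 8 samples were ranked by Pearson correlation among protein-coding genes. The coefficients are a description: the samples share the group contrast, and the best of many genes is high by selection. For PDGFRB they were SLC7A4 (r = 0.993, 0 to 91.4 CPM), the transcription factor GATA4 (0.986, 0.195 to 73.7 CPM) and the collagen receptor DDR2 (0.983, 0.454 to 43.7 CPM). With group means removed the coefficients were 0.991, 0.981 and 0.977. For PDGFC they were NACC2 (0.989), GDF6 (0.983, 0.195 to 309 CPM), a growth factor of the BMP family, and ELOVL2 (0.983), an enzyme of fatty acid elongation. PDGFB was closest to PRKCH (0.958), a protein kinase C, then ZNF79 (0.944) and SLC25A24 (0.936). PDGFD was closest to HIP1R (0.972), SLC35A5 (0.972) and ZNF382 (0.971), and PDGFA to MYLK4 (0.967), SMARCE1 (0.906) and ZC3H12B (0.893).

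The gap between PDGFRB in iREC F and the next iREC sample was 0.817 of the range of that group, under Dixon's critical share for 4 samples. None of the 24 groups of values examined this way (0), the members, marker sums and library totals, passed it.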
